A study of Mus musculus with 24 samples.

Results

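The genes of 4 guidance systems were followed in the endothelium and the stroma of mouse marrow: ephrins with their Eph receptors, semaphorins with their plexin receptors, Slits with their Robo receptors, and netrins with their Unc5 receptors. Members were chosen by name alone, as every symbol in the deposited files that joins one of these family names to its number or letter, and no measured value entered the choice. The rule found 68 of 23879 gene symbols: 5 ephrin-A, 3 ephrin-B, 9 EphA, 5 EphB, 7 class 3 semaphorin, 13 membrane-bound semaphorin, 9 plexin, 3 Slit, 4 Robo, 6 netrin and 4 Unc5 genes. Transcript levels are FPKM, fragment counts scaled for transcript length and for the size of the library, as the authors deposited them.

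Both cell types came from C57BL/6J mice and were profiled in 4 settings with 3 libraries each, 24 in all. The first setting was culture. A second culture series was kept alone or together with hematopoietic stem and progenitor cells (HSPC in the titles, stem cells in other labels). The fourth setting was cells from the marrow itself, called in vivo. All cultured libraries, those of both series, have Akt1 in their titles, a kinase that acts below growth factor receptors, and the in vivo libraries lack it. What was done to Akt1 in the cultured cells is not given in the sources used here. The effects of Akt1 and of the setting cannot be told apart where in vivo is compared with culture. The labels give no age, although the column headers of the in vivo endothelial files carry the word young. Whether replicates are separate mice or separate cultures is not stated, so p-values cover the spread of these libraries only. That spread may be technical, although in the first culture libraries of the same group differed in Xist, an X chromosome transcript given below. The labels also do not say whether HSPC were removed before the RNA was taken.

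Guidance genes are named for their work in the developing nervous system, where secreted and membrane-bound ligands attract or repel growing axons. The same ligands and receptors act in blood vessels. Ephrin-B2 marks arterial endothelium and its receptor EphB4 venous endothelium, and signalling between them helps to keep the 2 kinds of vessel apart. Class 3 semaphorins are secreted and bind neuropilins, which signal through A-type plexins; semaphorin 3E binds plexin D1 directly, the plexin of endothelial cells. Slit proteins bind Robo1 and Robo2, and another member of the Robo family, Robo4, belongs to endothelium and stabilizes vessels. Netrin-1 binds DCC, neogenin and the Unc5 receptors, and Unc5b restrains the growth of vessel sprouts.

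Library totals ran from 1421447 to 1808592 FPKM, and 12447 to 13961 genes reached 1 FPKM per library. The files give no counts, so the depth behind a value is unknown, and the spread between the 3 libraries is the only error. The 6 defining endothelial markers summed to 5044 to 13854 FPKM in the endothelial libraries and to at most 23.99 FPKM in the stromal ones. The 6 stromal markers summed to 3406 to 162558 FPKM in the stromal libraries and to 259.72 to 3075 FPKM in the endothelial ones, and Lepr, which marks marrow stroma, was listed at 0 in stroma alone. Among the members, libraries of 1 group correlated at 0.9852 to 0.9992 on the log2 scale outside the first culture series. In that series the correlation between libraries was 0.8488 to 0.8916 for endothelium and 0.7483 to 0.9819 for stroma. A fit chosen after seeing the data left out replicate 2 of cultured endothelium and replicate 1 of cultured stroma. Below they are called the libraries that stand apart. For endothelium the name is loose, because the correlations do not single out replicate 2. There 38 members reached 1 FPKM in replicate 1, against 47 and 46 in replicates 2 and 3. Xist, the transcript of the inactive X chromosome, stood at 1006 to 1249.8 FPKM in replicates 2 and 3 of cultured endothelium and in replicate 3 of cultured stroma, and at or below 2.35 FPKM elsewhere. Fits without the libraries with Xist keep only replicate 1 of cultured endothelium, so their results for that group rest on 1 library. In vivo minus culture also sets libraries without Xist against groups that mix both kinds. Where leaving out a single library of the first culture series changes a result given here, the library is named beside it.

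Of the 68 members, 59 reached a mean of 1 FPKM in at least 1 of the 8 groups, 28 reached it in all 8, and 28 reached a mean of 100 FPKM in at least 1 group. Epha10, Epha6 and Ntn5 were listed at 0 in all 24 libraries, and 7 members stayed below 1 FPKM in every library. Of the members that reached 1 FPKM, the highest group mean belonged to endothelium in vivo for 12, to stroma in vivo for 13 and to stroma alone for 12. The heat map of all members shows the families side by side.

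**Figure D1:**
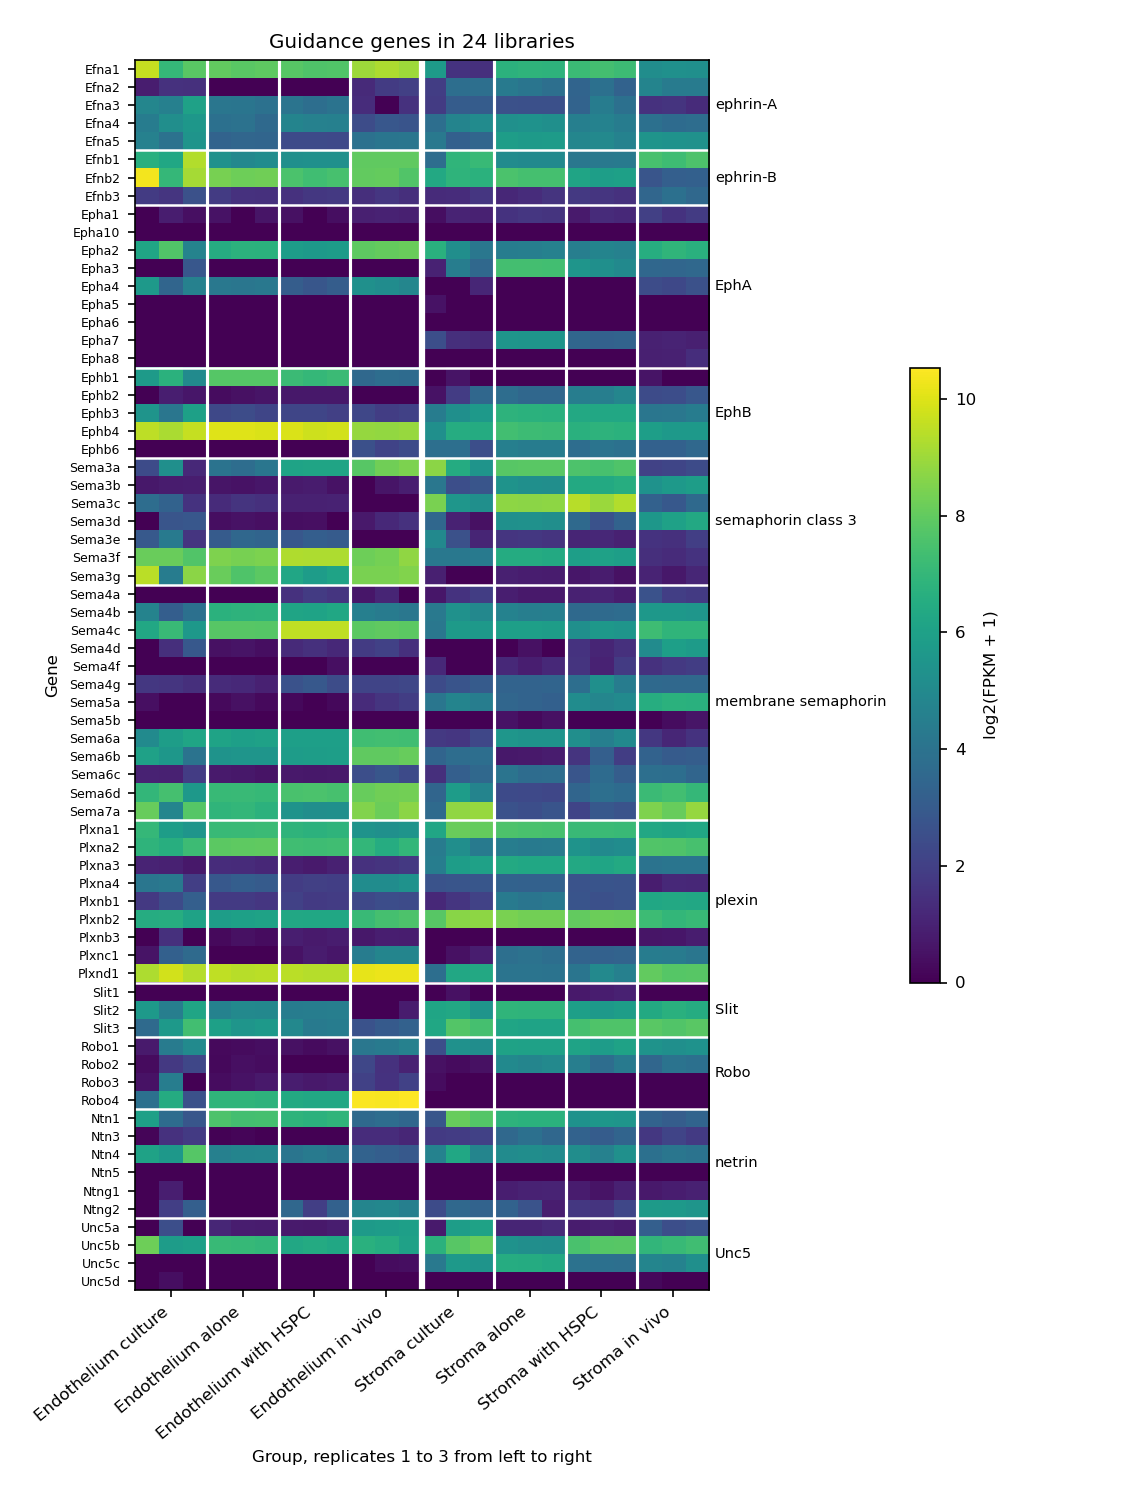
Levels of the 68 guidance genes in 24 libraries, as log2(FPKM + 1) by colour; rows are genes by family, columns are the 3 libraries of each of 8 groups. Robo4 is at its brightest in the 3 libraries of endothelium in vivo and dark in all 12 stromal libraries, and the 3 columns of each first culture group differ more from each other than those of other groups.

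Endothelium was compared with stroma in 3 settings that share no library: the first culture, the second culture series alone, and in vivo. In all 3, endothelium held more Robo4, Ephb4, Ephb1, Efnb2, Efna1, Epha4, Plxnd1, Sema3f, Sema3g, Sema6a and Sema6b, 11 members, and stroma held more Unc5c, Sema3b, Sema3c, Sema4a, Sema4g, Sema5a, Plxna3, Epha7, Ephb6 and Efna2, 10 members. The share of all tested genes that kept a direction in all 3 was not counted, so these numbers have no background. Differences were tested with limma on log2(FPKM + 1) for genes that reached 1 FPKM in at least 3 of the 12 libraries of a fit. A gene was called at an adjusted p (Benjamini-Hochberg, over all tested genes) under 0.05. The first culture and in vivo shared a fit, so an SE or p-value in vivo also carries the spread of the cultured libraries. Among members the median SD was 0.777 and 0.632 on the log2 scale in cultured endothelium and stroma, and 0.118 and 0.16 in vivo. In the first culture 30 of 58 tested members were called, 16 higher and 14 lower in endothelium, against 38.7% of all tested genes (20.1% higher, 18.6% lower). Alone, 53 of 57 were called, 21 higher and 32 lower, against 83.3% of all genes (42% higher, 41.3% lower). In vivo 39 of 58 were called, 13 higher and 26 lower, against 49.3% of all genes (25% higher, 24.2% lower). The call for Efnb2 in the first culture, and with it its place among the 11, was lost without replicate 3 of cultured endothelium or of cultured stroma. Sema4a left the 10 without replicate 2 or 3 of cultured stroma, and Ephb6 left them without replicate 2 or 3 of endothelium in vivo or any replicate of stroma in vivo. The called members were 51.7%, 93% and 67.2% of those tested, above the background in each setting. The median size of the difference among members was 1.54, 2.45 and 2.16 on the log2 scale, against 0.48, 0.66 and 0.6 over all tested genes. In these bulk libraries, fewer cells of a type and less RNA per cell cannot be told apart. Of the members, Epha10, Epha5, Epha6, Epha8, Ntn5, Ntng1, Plxnb3, Sema5b, Slit1 and Unc5d were too low to be tested in any comparison, and Robo3 was too low in the second culture series.

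**Figure D2:**
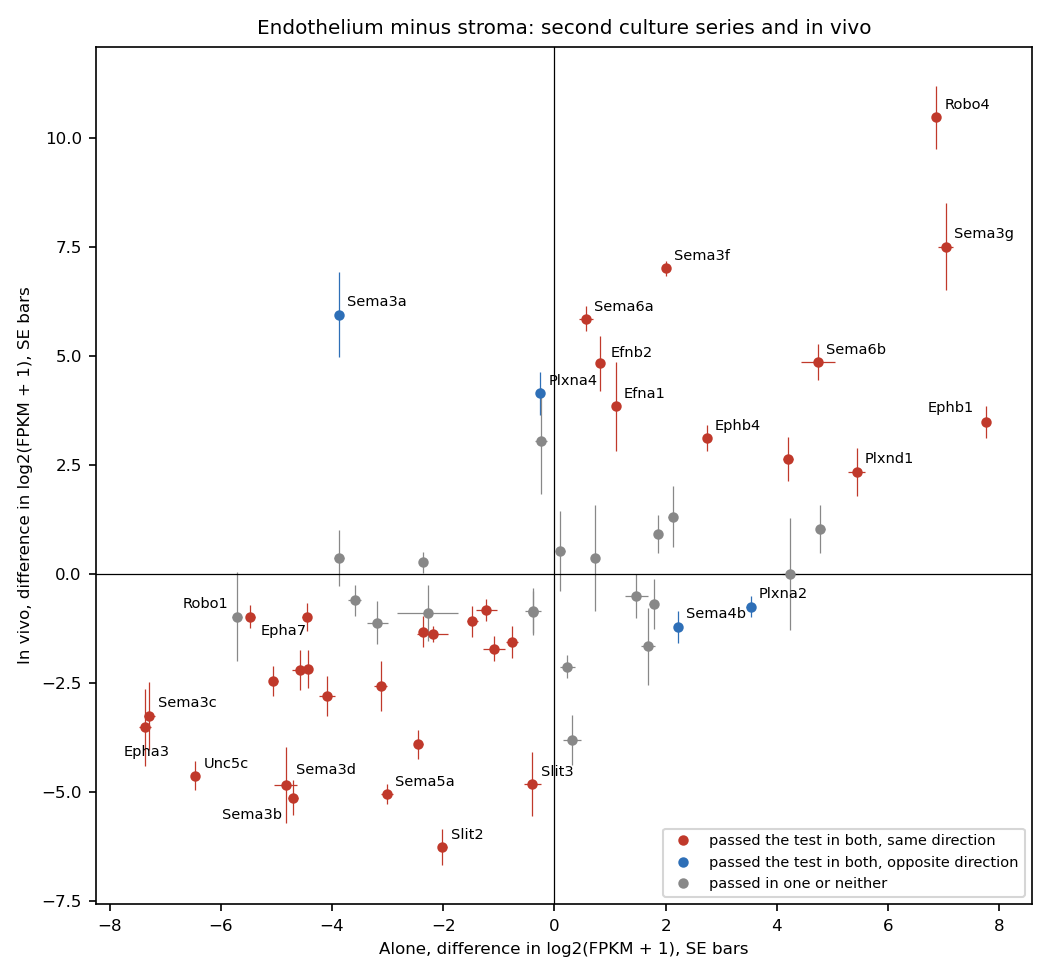
Endothelium minus stroma for each tested guidance gene, as the difference in log2(FPKM + 1) alone (horizontal axis) and in vivo (vertical axis); points are genes, bars are standard errors, and colour says whether a gene passed the test in both. Most genes that passed in both lie in the lower left and upper right, and Sema3a, Plxna4, Plxna2 and Sema4b lie in the upper left and lower right.

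In 6 members the direction of the difference between the cell types changed with the setting. The share of all tested genes that did so was not counted. Sema3a, a repellent for axons and endothelial cells, was lower in endothelium than in stroma in both culture series and higher in vivo; the call in the first culture was lost with only the compared groups in the fit (adjusted p = 0.0684). Plxna2, a receptor component for class 3 and class 6 semaphorins, was higher in endothelium in both culture series and lower in vivo, where the call was lost without replicate 2 of endothelium or replicate 1 or 2 of stroma (adjusted p = 0.067 to 0.0958). Sema4b was higher alone and lower in vivo, where the call was lost without replicate 3 of endothelium or replicate 1 or 2 of stroma (adjusted p = 0.0519 to 0.0647). In the first culture Sema4b was not called (-0.92, limma, adjusted p = 0.0714). It was called lower in endothelium there without replicate 1 of cultured endothelium (-1.32, limma, adjusted p = 0.00814) or replicate 1 of cultured stroma (-1.21, limma, adjusted p = 0.0226). Plxna4 was lower alone, by a small difference of -0.26, and higher in vivo, by 4.14 on the log2 scale. In the first culture it was not called (0.69, limma, adjusted p = 0.304). There it was called higher in endothelium without replicate 3 of cultured endothelium (1.44, limma, adjusted p = 3.07e-04), and the difference was 1.40 without the libraries with Xist. The other two rest on calls in the first culture where the libraries overlapped. Efna5 was higher there and lower alone and in vivo, and the first of these calls was lost under trimmed-mean scaling (adjusted p = 0.0537), with only the compared groups in the fit, without the libraries with Xist, or without replicate 1 or 3 of cultured endothelium or replicate 2 or 3 of cultured stroma, and without replicate 3 of endothelium the difference was 0.64 in place of 1.03. Plxnc1, a receptor of semaphorin 7A, stood at 0.49, 8.26 and 11.4 FPKM in cultured endothelium and 0, 0.4 and 0.79 FPKM in cultured stroma, and alone it was listed at 0 in endothelium and stood at 13.25, 14.7 and 12.9 FPKM in stroma. Its call in culture was lost without replicate 2 or 3 of cultured endothelium or replicate 1 or 2 of cultured stroma (adjusted p = 0.0675 to 0.0981), and the difference of 2.03 was 0.33 without the libraries with Xist.

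Robo4, Sema3a and Unc5a rose most in endothelium between culture and in vivo, and Slit2 fell most. In stroma Plxnb1, Sema3d and Sema4d rose most, and Sema3a, Efnb2 and Sema3c fell most. Between culture and in vivo, 24 of 58 tested members were called in endothelium, 15 higher and 9 lower in vivo, against 53.3% of all genes (23.6% higher, 29.8% lower). In stroma 27 of 58 were called, 19 higher and 8 lower in vivo, against 55.4% of all genes (24% higher, 31.4% lower). The members' shares were 41.4% and 46.6%, below the background in both. The median size of the difference among members was 0.92 and 1.31 on the log2 scale, against 0.69 and 0.71 over all tested genes. In the first culture the members had a median SD between libraries of 0.777 in endothelium and 0.632 in stroma. Over all genes in the files it was 0.152 and 0.139, but 9827 to 10679 of those 23879 genes were at 0 per library. Of the 68 members 14 to 22 were at 0, so the medians are not like for like. With a trimmed-mean scaling of the libraries, the split became 17 higher and 9 lower in endothelium and 22 higher and 7 lower in stroma. The same scaling moved the median of all genes by 0.108 and 0.205 on the log2 scale, and the share of all calls that were higher in vivo rose from 44.2% to 56.2% in endothelium and from 43.3% to 57.2% in stroma. An interaction, which asks whether the change differed between the cell types, called 26 of 58 members, 11 higher and 15 lower, against 33.5% of all genes (16.4% higher, 17.1% lower). Marker lists moved with the setting too. In stroma the 3 osteoblast markers summed to 29917 to 40678 FPKM in vivo and to at most 22.2 FPKM in culture, and the 3 erythroid markers to 18111 to 21776 FPKM in vivo and to 0 in culture. In endothelium the 4 sinusoidal markers summed to 4532 to 5423 FPKM in vivo and to 164.82 to 529.1 FPKM in culture. Their part in the members' changes was not tested.

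Membrane-bound semaphorins act on plexins of neighbouring cells. Of 12 tested, 7 were higher and 0 lower in endothelium in vivo, against 23.6% and 29.8% of all genes, and 6 were higher and 0 lower in stroma, against 24% and 31.4%. Trimmed-mean scaling gave 7 and 7 higher and again 0 lower. Sema4c, Sema4g, Sema5a and Sema6d were higher in vivo in both cell types.

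With HSPC, Sema3a, Sema4c, Sema3f, Plxnb2, Plxnc1 and Efna4 rose in endothelium and fell in stroma, while Slit3, Unc5b, Plxna2, Sema3c and Efna1 fell in endothelium and rose in stroma. Sema4d, Sema4g and Sema6d rose in both, and Efnb2, Ephb4, Efna5, Ntn1, Plxna1, Plxna4, Sema4b and Slit2 fell in both. In endothelium 32 of 57 tested members were called, 11 higher and 21 lower than alone, against 48.6% of all genes (28.3% higher, 20.3% lower). In stroma 44 of 57 were called, 14 higher and 30 lower, against 61% of all genes (25.6% higher, 35.4% lower). The members' shares were 56.1% and 77.2%. Most differences among the tested members were under 2-fold. Their median size was 0.38 in endothelium and 0.54 in stroma on the log2 scale, against 0.19 and 0.27 over all tested genes. Of the called members, 11 and 17 passed 2-fold, a share that was not counted over all genes. Trimmed-mean scaling gave 11 higher and 23 lower members in endothelium, while the share of all calls that were higher fell from 58.2% to 48%. The interaction of cell type and HSPC called 43 of 57 members, 23 with a higher and 20 with a lower change in endothelium, against 57% of all genes (36% higher, 21.1% lower). Trimmed-mean scaling gave 19 and 21 there, while the share of all calls that were higher fell from 63.1% to 52.2%. When the spread was estimated from all 8 groups in place of the 4 groups of this series, the interaction called 12 members.

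Markers of blood cells moved with the addition of HSPC. The 6 myeloid markers summed to 5.67 to 7.24 FPKM in endothelium alone and to 622.52 to 794.86 FPKM with HSPC. In stroma they summed to 4.81 to 6.64 FPKM alone and to 189.16 to 219.76 FPKM with HSPC. Ptprc, Mpo, Elane and Itgam, 4 of the 6, were listed at 0 in both cell types alone, and all 6 were found with HSPC. The part of blood cell RNA in the changes of the members was not tested.

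**Figure D3:**
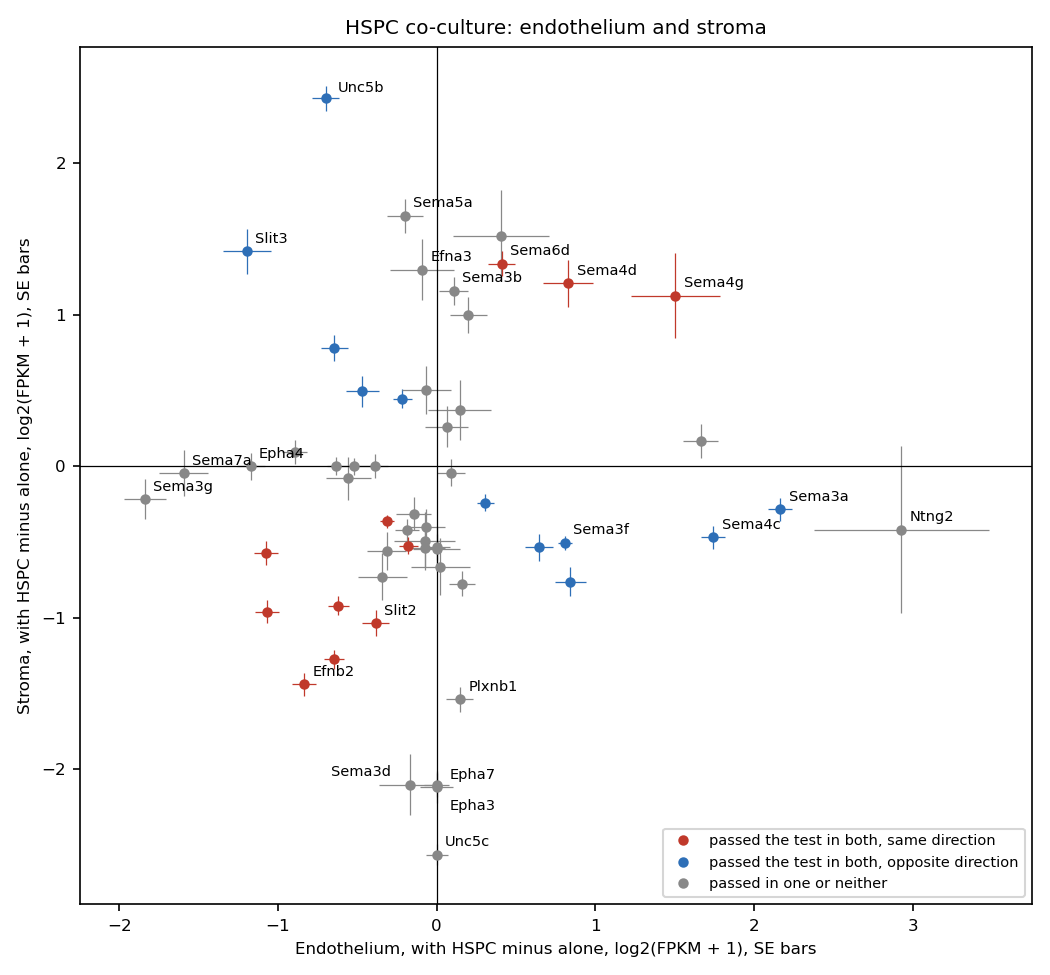
Change with HSPC in each tested guidance gene, as with HSPC minus alone in log2(FPKM + 1), for endothelium (horizontal axis) and stroma (vertical axis); points are genes and bars are standard errors. Unc5b and Slit3 lie in the upper left, where endothelium fell and stroma rose, and Sema3a and Sema4c in the lower right.

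Among the ephrin-B ligands, which span the membrane, Efnb2 was the most abundant in culture. In endothelium it stood at 1293, 127 and 549.6 FPKM in culture, at 334, 293 and 305 FPKM alone, at 187, 158 and 177 FPKM with HSPC and at 256, 260.02 and 202.5 FPKM in vivo. In stroma the levels were 81.9, 115 and 106 FPKM in culture, 184, 169.9 and 171 FPKM alone, 69.8, 59.3 and 63.2 FPKM with HSPC and 5.87, 8.05 and 8.51 FPKM in vivo. Endothelial libraries lay above the stromal ones in each setting, and the gap was widest in vivo, where stroma had its lowest level. The difference between the cell types was 4.83 ± 0.63 on the log2 scale (limma, adjusted p = 1.02e-04) in vivo and 0.82 ± 0.08 (limma, adjusted p = 7.43e-07) alone. In the first culture it was 2.15 ± 0.63 (limma, adjusted p = 0.0211), but the call was lost without replicate 3 of cultured endothelium (adjusted p = 0.0606) or replicate 3 of cultured stroma (adjusted p = 0.0507), or with only the compared groups in the fit (adjusted p = 0.104), and the difference was 1.39 without replicate 1 of cultured endothelium and 3.72 without the libraries with Xist. In vivo minus culture was -3.59 ± 0.63 on the log2 scale (limma, adjusted p = 8.40e-04) in stroma. In endothelium the same difference was -0.91 ± 0.63 (limma, adjusted p = 0.249), and it was -1.82 (adjusted p = 0.00145) without replicate 2 of cultured endothelium, the library with the least Efnb2. Without the libraries with Xist it was -2.44, with only replicate 1 of cultured endothelium left, the library with the most Efnb2. With HSPC Efnb2 fell by 0.84 ± 0.08 on the log2 scale in endothelium (limma, adjusted p = 3.78e-06) and by 1.44 ± 0.08 in stroma (limma, adjusted p = 3.26e-08). In endothelium the 4 arterial markers Gja5, Gja4, Bmx and Sox17 summed to 720.69 to 9762.69 FPKM in culture and to 608.86 to 709.85 FPKM alone. With HSPC the sum was 244.34 to 294.52 FPKM, and in vivo it was 331.39 to 351.14 FPKM. A sum can rest on 1 abundant marker, and the single markers were not compared with Efnb2.

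Ephb4, the receptor for ephrin-B2, was the most abundant Eph receptor gene of every endothelial group. It stood at 720.2, 595 and 788 FPKM in culture, 1045, 1032 and 985 FPKM alone, 969.8, 849 and 889 FPKM with HSPC and 473, 454 and 482 FPKM in vivo. Stroma held 36.5, 92.05 and 88.1 FPKM in culture, 164, 148 and 146 FPKM alone, 101, 111 and 104 FPKM with HSPC and 59.35, 51.6 and 49.2 FPKM in vivo. The lowest endothelial library held more than the highest stromal one. Endothelium exceeded stroma by 3.36 ± 0.29 on the log2 scale (limma, adjusted p = 1.05e-05) in culture, by 2.73 ± 0.06 (limma, adjusted p = 9.58e-13) alone and by 3.12 ± 0.29 (limma, adjusted p = 8.48e-06) in vivo. With HSPC the change was -0.52 ± 0.06 on the log2 scale (limma, adjusted p = 1.35e-05) in stroma. In endothelium it was -0.18 ± 0.06 (limma, adjusted p = 0.0258), and that call was lost without replicate 1 or 2 of endothelium alone or without replicate 2 or 3 of endothelium with HSPC (adjusted p = 0.0726 to 0.106). In vivo minus culture was -0.57 ± 0.29 on the log2 scale (limma, adjusted p = 0.125) in endothelium, where it passed with only the compared groups in the fit (adjusted p = 0.0202) and without the libraries that stand apart (-0.68, adjusted p = 3.93e-04). It was -0.32 ± 0.29 (limma, adjusted p = 0.374) in stroma, and there it was -0.75 (adjusted p = 8.94e-04) without replicate 1 of cultured stroma.

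The promoters of this artery and vein pair are shown because ephrin-B2 and EphB4 are a ligand and its receptor, and both were higher in endothelium in the 3 settings. Each runs from 250 bases before to 50 bases after the RefSeq start of transcription, on the build GRCm38.p6, 5′ to 3′ along the gene. Capitals mark CAGGAAG, the GC box GGGCGG and the TATA box TATAAA on either strand. The Efnb2 promoter (chr8:8661193-8661492, minus strand) holds 35 CpG pairs, and the Ephb4 promoter (chr5:137349859-137350158, plus strand) holds 14.
Efnb2: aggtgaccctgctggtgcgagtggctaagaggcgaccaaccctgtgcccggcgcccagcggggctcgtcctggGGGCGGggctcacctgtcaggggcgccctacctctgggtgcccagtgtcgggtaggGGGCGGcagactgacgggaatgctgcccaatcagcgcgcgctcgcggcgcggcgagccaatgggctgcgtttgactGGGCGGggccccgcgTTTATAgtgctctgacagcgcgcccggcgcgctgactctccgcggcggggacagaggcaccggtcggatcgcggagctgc
Ephb4: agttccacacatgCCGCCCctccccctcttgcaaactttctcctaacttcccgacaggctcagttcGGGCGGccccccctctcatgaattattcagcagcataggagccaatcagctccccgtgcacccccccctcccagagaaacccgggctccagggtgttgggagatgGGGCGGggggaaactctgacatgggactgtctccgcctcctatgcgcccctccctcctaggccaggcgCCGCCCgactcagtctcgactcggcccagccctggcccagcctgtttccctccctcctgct

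Ephb1, another EphB receptor, was found in endothelium and was near or at 0 in stroma. Endothelial levels were 53.04, 105 and 31.5 FPKM in culture, 215, 218 and 217 FPKM alone, 143, 129.7 and 145 FPKM with HSPC and 10.75, 12.65 and 11.8 FPKM in vivo. Stroma was listed at 0 in 10 of its 12 libraries and reached 0.47 FPKM in the other two. In endothelium Ephb1 was lower in vivo than in culture, with a difference of -2.17 ± 0.38 on the log2 scale (limma, adjusted p = 8.34e-04), and lower with HSPC than alone, with a difference of -0.63 ± 0.06 (limma, adjusted p = 3.76e-06). Ephb3 and Ephb6 had the opposite pattern alone: Ephb3 had a mean of 3.98 ± 0.440 FPKM in endothelium and 106 ± 3.97 FPKM in stroma (SD, n = 3), and Ephb6 was listed at 0 in endothelium and had a mean of 20.9 ± 1.11 FPKM in stroma. Ephb2 rose in stroma with HSPC, from 12.5, 10.55 and 10.4 FPKM to 20.8, 21.6 and 27.7 FPKM, a difference of 1.00 ± 0.12 on the log2 scale (limma, adjusted p = 2.10e-05).

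The EphA receptors, which bind the membrane-anchored ephrin-A ligands, divided between the cell types. Epha3 stood at 165, 167 and 159.8 FPKM in stroma alone and at 44.25, 37.1 and 30.85 FPKM with HSPC, a fall with a difference of -2.12 ± 0.10 on the log2 scale (limma, adjusted p = 1.93e-08). It was listed at 0 in endothelium except for 6.17 FPKM in 1 library of the first culture. Epha7 followed in stroma: 44.5, 42.4 and 43 FPKM alone, 10.2, 8.55 and 9.19 FPKM with HSPC and 0.96, 1.05 and 0.92 FPKM in vivo, and it was listed at 0 in all 12 endothelial libraries. Its change with HSPC in stroma was -2.10 ± 0.08 on the log2 scale (limma, adjusted p = 1.75e-09). Epha4 was the reverse. It stood at 50.85, 9.74 and 23.7 FPKM in cultured endothelium, 17.8, 16.65 and 17.45 FPKM alone, 7.65, 6.16 and 7.64 FPKM with HSPC and 38.3, 33.5 and 27.5 FPKM in vivo, and it was listed at 0 in all 6 stromal libraries of the second series. Its change with HSPC in endothelium was -1.17 ± 0.09 on the log2 scale (limma, adjusted p = 8.94e-07). Epha2, the most abundant EphA gene of endothelium, had means of 261 ± 18.6 FPKM in vivo, 101 ± 8.84 FPKM alone and 53.7 ± 2.17 FPKM with HSPC, and it was lower with HSPC than alone, with a difference of -0.89 ± 0.08 on the log2 scale (limma, adjusted p = 3.53e-06).

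Of the ephrin-A ligands, Efna1 made up most of the family in endothelium, from 78.8% of the summed FPKM in culture to 95.6% in vivo. Its endothelial levels were 780.45, 127 and 229.9 FPKM in culture, 257, 229 and 239 FPKM alone, 221, 199 and 204 FPKM with HSPC and 509, 599 and 505 FPKM in vivo. Stromal levels were 53.1, 1.9 and 1.78 FPKM in culture, 108, 115 and 113 FPKM alone, 145, 166 and 149 FPKM with HSPC and 34.7, 37.99 and 36.96 FPKM in vivo. Replicate 1 of cultured stroma lay well above the other 2 libraries of its group, and in no setting did the cell types overlap. Endothelium minus stroma was 3.84 ± 1.01 on the log2 scale (limma, adjusted p = 0.00941) in vivo and 1.10 ± 0.06 (limma, adjusted p = 6.62e-09) alone. Efna3 went from 27.9, 23.3 and 65.2 FPKM in cultured endothelium to 1.53, 0 and 1.86 FPKM in vivo, a difference of -4.22 ± 0.51 on the log2 scale (limma, adjusted p = 7.75e-05). In stroma Efna3 rose with HSPC, from 5.06, 5.03 and 4.9 FPKM to 9.15, 20.35 and 13.75 FPKM, by 1.30 ± 0.20 on the log2 scale (limma, adjusted p = 1.74e-04). Efna4 moved in opposite directions with HSPC: it rose in endothelium from 13.9, 14.9 and 11.1 FPKM to 26.3, 24 and 23.4 FPKM, by 0.84 ± 0.10 on the log2 scale (limma, adjusted p = 2.96e-05), and fell in stroma from 38.3, 40.1 and 37.4 FPKM to 22.5, 24.3 and 20.3 FPKM. Efna1, Efna3 and Efna4 are neighbours in RefSeq's gene order, and with HSPC the 3 did not all move one way in either cell type.

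Class 3 semaphorins split into genes of endothelium and genes of stroma. Sema3g and Sema3f had the highest endothelial means in culture, alone and in vivo, and with HSPC Sema3f and Sema3a did. Sema3g, known from arterial endothelium, stood at 688, 20.6 and 415 FPKM in culture, 277, 199.7 and 237 FPKM alone, 73.98, 54.99 and 68.4 FPKM with HSPC and 341, 345 and 369.5 FPKM in vivo, and no stromal library passed 1.17 FPKM. The low value in culture belonged to replicate 2. The difference between the cell types was 7.51 ± 1.00 on the log2 scale (limma, adjusted p = 1.20e-04) in vivo and 7.04 ± 0.13 (limma, adjusted p = 3.18e-13) alone. With HSPC Sema3g fell in endothelium, with a difference of -1.84 ± 0.13 on the log2 scale (limma, adjusted p = 6.80e-07).

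Sema3f, which signals through neuropilin-2, stood at 282, 277 and 205 FPKM in cultured endothelium, 363, 332 and 355 FPKM alone, 623, 608 and 609 FPKM with HSPC and 293, 321 and 438 FPKM in vivo. The stromal libraries had 17.6, 17.8 and 19.1 FPKM in culture, 88.1, 87.6 and 84.05 FPKM alone, 58.6, 65 and 58.7 FPKM with HSPC and 1.7, 1.43 and 1.95 FPKM in vivo. The libraries agreed closely within each group, also in the first culture. With HSPC Sema3f rose in endothelium by 0.81 ± 0.05 on the log2 scale (limma, adjusted p = 9.20e-08) and changed in stroma by -0.50 ± 0.05 (limma, adjusted p = 2.69e-06). In vivo minus culture was -2.84 ± 0.18 on the log2 scale (limma, adjusted p = 5.07e-07) in stroma and 0.45 ± 0.18 (limma, adjusted p = 0.0516) in endothelium, where it passed without replicate 1 of cultured endothelium (0.53, adjusted p = 0.0458), without replicate 1 of endothelium in vivo (0.57, adjusted p = 0.0395) and under trimmed-mean scaling (0.68, adjusted p = 0.00418).

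Sema3a had the largest interaction of cell type and setting among the tested members. In endothelium it stood at 4.3, 36.9 and 1.34 FPKM in culture, 14.99, 12.7 and 16.5 FPKM alone, 67.3, 69.7 and 70.5 FPKM with HSPC and 222, 306 and 351 FPKM in vivo. Levels in stroma were 419, 87.3 and 43.1 FPKM in culture, 224, 229 and 231 FPKM alone, 192, 174 and 196 FPKM with HSPC and 3.19, 3.56 and 4.36 FPKM in vivo. Every cultured stromal library lay above every cultured endothelial one of its series, and in vivo every endothelial library lay above every stromal one. In vivo minus culture was 5.22 ± 0.97 on the log2 scale (limma, adjusted p = 0.00126) in endothelium and -4.65 ± 0.97 (limma, adjusted p = 0.00242) in stroma, and the interaction was 9.87 ± 1.38 (limma, adjusted p = 3.46e-04). With HSPC Sema3a rose in endothelium by 2.16 ± 0.08 on the log2 scale (limma, adjusted p = 1.80e-09), and the change in stroma was -0.28 ± 0.08 (limma, adjusted p = 0.00648). Sema3d, its neighbour in RefSeq's gene order, took another course in stroma: 10.6, 1.01 and 0.39 FPKM in culture, 37.8, 39.4 and 36.4 FPKM alone, 10.97, 5.24 and 8.92 FPKM with HSPC and 46.3, 64.45 and 80.5 FPKM in vivo. Its difference in stroma was 4.31 ± 0.87 on the log2 scale (limma, adjusted p = 0.00196) for in vivo minus culture and -2.10 ± 0.20 (limma, adjusted p = 3.62e-06) for HSPC.

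Sema3c, an attractant in the developing heart and a class 3 semaphorin of stroma here, stood at 337, 45.1 and 37.1 FPKM in cultured stroma, 425, 422 and 426 FPKM alone, 673, 493 and 644 FPKM with HSPC and 8.72, 6.38 and 11.3 FPKM in vivo. Endothelial levels were 12.5, 8.99 and 1.9 FPKM in culture, 1.46, 1.96 and 1.79 FPKM alone and 0.94, 0.95 and 1.03 FPKM with HSPC, and endothelium in vivo was listed at 0. Between the cell types the difference was -7.28 ± 0.10 on the log2 scale (limma, adjusted p = 2.50e-14) alone and -3.52 ± 0.78 (limma, adjusted p = 0.0053) in culture. In stroma, in vivo minus culture was -3.13 ± 0.78 on the log2 scale (limma, adjusted p = 0.00657), and with HSPC the level rose by 0.49 ± 0.10 (limma, adjusted p = 0.00152). Sema3b rose in stroma with HSPC as well, from 41, 37.01 and 36.4 FPKM to 82.7, 82.8 and 93.3 FPKM, by 1.16 ± 0.09 on the log2 scale (limma, adjusted p = 8.30e-07). Sema3e, the ligand of plexin D1, was listed at 0 in endothelium in vivo and stood at 7.22, 10.4 and 9.67 FPKM in endothelium alone.

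Sema4c, Sema6d and Sema7a had the highest means of the membrane-bound semaphorins in endothelium in culture and alone, while in vivo Sema6b exceeded Sema4c, and with HSPC Sema4b took the place of Sema7a. Sema4c, a ligand of plexin B2, stood at 78.03, 139 and 47.9 FPKM in cultured endothelium, 221, 220.3 and 214 FPKM alone, 736, 737 and 729 FPKM with HSPC and 236, 252 and 236 FPKM in vivo. Stromal levels were 17.2, 52.2 and 50.4 FPKM in culture, 61.02, 60.4 and 56.8 FPKM alone, 36.5, 47.7 and 44.35 FPKM with HSPC and 152, 119 and 117 FPKM in vivo. The 3 endothelial libraries with HSPC lay above all others. With HSPC Sema4c rose in endothelium by 1.74 ± 0.08 on the log2 scale (limma, adjusted p = 9.83e-09) and changed in stroma by -0.47 ± 0.08 (limma, adjusted p = 2.13e-04), and the interaction was 2.21 ± 0.11 (limma, adjusted p = 4.15e-08). Plxnb2, its receptor, was higher in stroma alone, with a mean of 324 ± 16.7 FPKM against 62.4 ± 4.35 FPKM in endothelium alone.

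Sema7a, which is anchored to the membrane by a lipid and binds integrins and plexin C1, varied widely within the first culture series. Its levels were 269.85, 26.6 and 216 FPKM in cultured endothelium and 11.5, 443 and 477 FPKM in cultured stroma, where replicate 1 lay far below the others. In vivo they were 369, 291 and 413 FPKM in endothelium and 358, 269 and 473 FPKM in stroma. In the second series they were 119, 126 and 108 FPKM in endothelium alone, 42.2, 35.65 and 36.9 FPKM with HSPC, 5.25, 4.86 and 5.61 FPKM in stroma alone and 3.52, 6.55 and 5.45 FPKM with HSPC. The cell types overlapped in culture and in vivo and were apart alone, with a difference of 4.24 ± 0.15 on the log2 scale (limma, adjusted p = 1.12e-10). With HSPC Sema7a fell in endothelium, with a difference of -1.59 ± 0.15 on the log2 scale (limma, adjusted p = 6.24e-06).

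Sema6a and Sema6b, ligands of A-type plexins, were raised in endothelium in vivo. Sema6b stood at 63.7, 46.8 and 15.1 FPKM in cultured endothelium and 251, 247 and 269.7 FPKM in vivo, a difference of 2.80 ± 0.40 on the log2 scale (limma, adjusted p = 2.53e-04). Sema6a stood at 32.05, 57.8 and 71.4 FPKM and 159, 159.8 and 157 FPKM in the same groups, a difference of 1.62 ± 0.29 on the log2 scale (limma, adjusted p = 9.54e-04). In stroma in vivo their means were 7.88 ± 0.881 and 1.81 ± 0.548 FPKM. Sema6d, a ligand of plexin A1, stood at 138, 139 and 133 FPKM in endothelium alone and 179.7, 189 and 176 FPKM with HSPC. In stroma it stood at 4.23, 4.04 and 3.72 FPKM alone, 9.9, 13.3 and 11.8 FPKM with HSPC and 143, 162 and 129 FPKM in vivo. Endothelium alone exceeded stroma alone by 4.78 ± 0.08 on the log2 scale (limma, adjusted p = 1.41e-13), and with HSPC Sema6d rose in stroma by 1.33 ± 0.08 (limma, adjusted p = 1.21e-07).

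Sema5a and Sema4d belonged to stroma in vivo. Sema5a stood at 16.4, 25.6 and 20.8 FPKM in cultured stroma, 10.2, 9.26 and 8.33 FPKM alone, 34.1, 27.7 and 32.2 FPKM with HSPC and 93.5, 104 and 102 FPKM in vivo, and no endothelial library passed 2.72 FPKM. With HSPC it rose in stroma by 1.65 ± 0.11 on the log2 scale (limma, adjusted p = 2.24e-07). Sema4d, the ligand of plexin B1 and a known product of lymphocytes and osteoclasts, stood at 33.01, 60.3 and 53.4 FPKM in stroma in vivo and was listed at 0 in cultured stroma. In endothelium it stood at 2.6, 3.06 and 1.72 FPKM in vivo. Stroma in vivo is also the group with the high osteoblast and erythroid marker sums, whose part was not tested. Sema4a was listed at 0 in endothelium alone and stood at 1.86, 2.57 and 2.11 FPKM with HSPC. Sema4g rose with HSPC in endothelium from 1.48, 1.34 and 0.98 FPKM to 5.33, 6.5 and 4.51 FPKM, by 1.5 ± 0.28 on the log2 scale (limma, adjusted p = 9.91e-04).

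Among the plexins, Plxnd1 was the endothelial one. It stood at 605, 902 and 658 FPKM in cultured endothelium, 741, 686 and 696 FPKM alone, 699, 667 and 662 FPKM with HSPC and 1136, 1187 and 1211 FPKM in vivo. Stromal levels were 13.1, 77.7 and 82.1 FPKM in culture, 15.7, 15.5 and 15.01 FPKM alone, 15.97, 29.9 and 22.9 FPKM with HSPC and 258.5, 217 and 223 FPKM in vivo. Every endothelial library lay above every stromal one, and stroma in vivo lay above all other stroma. The difference between the cell types was 3.98 ± 0.54 on the log2 scale (limma, adjusted p = 2.75e-04) in culture, 5.43 ± 0.16 (limma, adjusted p = 1.28e-11) alone and 2.34 ± 0.54 (limma, adjusted p = 0.00467) in vivo. In stroma, in vivo minus culture was 2.37 ± 0.54 on the log2 scale (limma, adjusted p = 0.00418), and it was 1.53 without replicate 1 of cultured stroma. In endothelium the same difference was 0.73 ± 0.54 on the log2 scale (limma, adjusted p = 0.286), and it passed with only the compared groups in the fit (adjusted p = 0.0226) and without the libraries that stand apart (0.90, adjusted p = 1.18e-04). With HSPC Plxnd1 rose in stroma by 0.50 ± 0.16 on the log2 scale (limma, adjusted p = 0.0151), a call lost with only the compared groups in the fit (adjusted p = 0.0629), and the difference was 0.30 without replicate 2 of stroma with HSPC. In endothelium the change was -0.07 ± 0.16 (limma, adjusted p = 0.791).

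Plxnb1, the receptor of Sema4d, was a stromal gene in vivo. It stood at 1.33, 2.1 and 3.25 FPKM in cultured stroma, 18.7, 16.3 and 17.4 FPKM alone, 5.61, 4.99 and 5.44 FPKM with HSPC and 75.7, 81.8 and 78 FPKM in vivo. Endothelium ranged from 2.22 to 8.02 FPKM over its 12 libraries. In stroma, in vivo minus culture was 4.67 ± 0.33 on the log2 scale (limma, adjusted p = 1.52e-06) and the change with HSPC was -1.54 ± 0.09 (limma, adjusted p = 4.93e-08). Plxna2 stood at 116, 96.6 and 147 FPKM in cultured endothelium and 124, 90.5 and 125 FPKM in vivo, and in stroma at 20.1, 36.3 and 19.3 FPKM in culture and 201, 195 and 176 FPKM in vivo. The stromal difference was 2.93 ± 0.24 on the log2 scale (limma, adjusted p = 4.52e-06) and the endothelial one -0.08 ± 0.24 (limma, adjusted p = 0.834). Plxna4 moved the other way: it went from 16.8, 18.3 and 2.9 FPKM to 34.3, 33.6 and 40.9 FPKM in endothelium and from 5.51, 5.94 and 6.01 FPKM to 0.77, 1.35 and 1.25 FPKM in stroma. Its difference was 1.75 ± 0.50 on the log2 scale (limma, adjusted p = 0.0131) in endothelium and -1.69 ± 0.50 (limma, adjusted p = 0.015) in stroma. The endothelial call was lost with only the compared groups in the fit (adjusted p = 0.0553), and the difference was 1.00 without replicate 3 of cultured endothelium and 1.06 without the libraries with Xist, and the stromal call was lost without replicate 1 of stroma in vivo (adjusted p = 0.0519).

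Robo4 had the highest level of any member. In endothelium it stood at 1417, 1364 and 1485 FPKM in vivo, 13.98, 87.6 and 5.17 FPKM in culture, 117, 118 and 111 FPKM alone and 82.3, 79.7 and 78.3 FPKM with HSPC. It was listed at 0 in all 12 stromal libraries. In vivo the 3 endothelial libraries lay far above all cultured ones, of which replicate 2 of the first culture was the highest of its group. In vivo minus culture was 6.14 ± 0.72 on the log2 scale (limma, adjusted p = 6.52e-05) in endothelium. With HSPC Robo4 fell by 0.52 ± 0.06 on the log2 scale (limma, adjusted p = 1.71e-05).

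Robo3, the neighbour of Robo4 in RefSeq's gene order, stayed low. It stood at 0.41, 21.1 and 0 FPKM in cultured endothelium and 3.09, 1.89 and 3.12 FPKM in vivo, and its highest value came from the cultured library with the most Robo4. No stromal library passed 0.29 FPKM. Their promoters are shown to set a gene of endothelium beside its neighbour. The Robo4 promoter (chr9:37401722-37402021, plus strand) holds 1 copy of CAGGAAG, a sequence that ETS factors can bind, and 2 CpG pairs. The Robo3 promoter (chr9:37433126-37433425, minus strand) holds 17 CpG pairs and GC boxes and no CAGGAAG. Capitals mark the same letters as above.
Robo4: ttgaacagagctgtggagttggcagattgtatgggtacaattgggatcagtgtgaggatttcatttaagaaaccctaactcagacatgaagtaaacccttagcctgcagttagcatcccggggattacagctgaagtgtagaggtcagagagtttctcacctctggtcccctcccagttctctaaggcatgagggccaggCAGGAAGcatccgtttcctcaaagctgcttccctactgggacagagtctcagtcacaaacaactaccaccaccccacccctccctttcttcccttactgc
Robo3: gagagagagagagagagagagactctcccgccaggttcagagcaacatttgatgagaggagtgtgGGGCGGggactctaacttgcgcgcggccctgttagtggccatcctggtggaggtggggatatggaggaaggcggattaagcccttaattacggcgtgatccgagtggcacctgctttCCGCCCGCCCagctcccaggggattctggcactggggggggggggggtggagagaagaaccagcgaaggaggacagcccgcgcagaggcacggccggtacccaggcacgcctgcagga

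Robo1 and Robo2, the receptors that bind Slits in axons, were led by stroma in the second series. Robo1 stood at 67.03, 63.9 and 63.8 FPKM in stroma alone and 0.21, 0.24 and 0.33 FPKM in endothelium alone, a difference of -5.71 ± 0.09 on the log2 scale (limma, adjusted p = 5.94e-14). In vivo it stood at 41.9, 37.5 and 40.55 FPKM in stroma and 17.3, 18.6 and 23.8 FPKM in endothelium, and the difference of -0.98 ± 1.01 (limma, adjusted p = 0.458) did not pass, although the libraries did not overlap; it passed with only the compared groups in the fit (SE 0.13, adjusted p = 2.38e-04). Robo2 had a mean of 29.2 ± 2.40 FPKM in stroma alone, 13.01 ± 2.57 FPKM in stroma in vivo and 0.33 ± 0.0872 FPKM in cultured stroma. In stroma its difference was 3.38 ± 0.46 on the log2 scale (limma, adjusted p = 1.50e-04) for in vivo minus culture.

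Slit2 and Slit3 transcripts were found in both cell types in culture and were led by stroma in vivo. Slit2 stood at 50.65, 21.5 and 73.1 FPKM in cultured endothelium, 24.3, 30.25 and 29.6 FPKM alone, 20.5, 20.9 and 22.02 FPKM with HSPC and 0, 0 and 0.72 FPKM in vivo. Stroma held 72.6, 78 and 43.2 FPKM in culture, 116, 116 and 115 FPKM alone, 60.8, 49.8 and 57.8 FPKM with HSPC and 82.8, 104 and 90.1 FPKM in vivo. Endothelium in vivo was at or near 0 in all 3 libraries. In vivo minus culture was -5.20 ± 0.41 on the log2 scale (limma, adjusted p = 4.55e-06) in endothelium and 0.55 ± 0.41 (limma, adjusted p = 0.287) in stroma. Endothelium minus stroma was -6.27 ± 0.41 on the log2 scale (limma, adjusted p = 6.21e-07) in vivo. Slit3 followed in endothelium, with 11.6, 51.4 and 160.02 FPKM in culture, 63.02, 44.6 and 51.65 FPKM alone, 29.1, 18.8 and 20.5 FPKM with HSPC and 5.21, 6.87 and 8.69 FPKM in vivo. The stromal libraries had 76.95, 208 and 169 FPKM in culture, 72.6, 67.3 and 69.15 FPKM alone, 169, 196 and 199 FPKM with HSPC and 231, 204 and 229 FPKM in vivo. With HSPC Slit3 changed by -1.19 ± 0.15 on the log2 scale (limma, adjusted p = 5.61e-05) in endothelium and by 1.42 ± 0.15 (limma, adjusted p = 8.95e-06) in stroma. The difference between the cell types in vivo was -4.83 ± 0.73 on the log2 scale (limma, adjusted p = 2.99e-04).

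**Figure D4:**
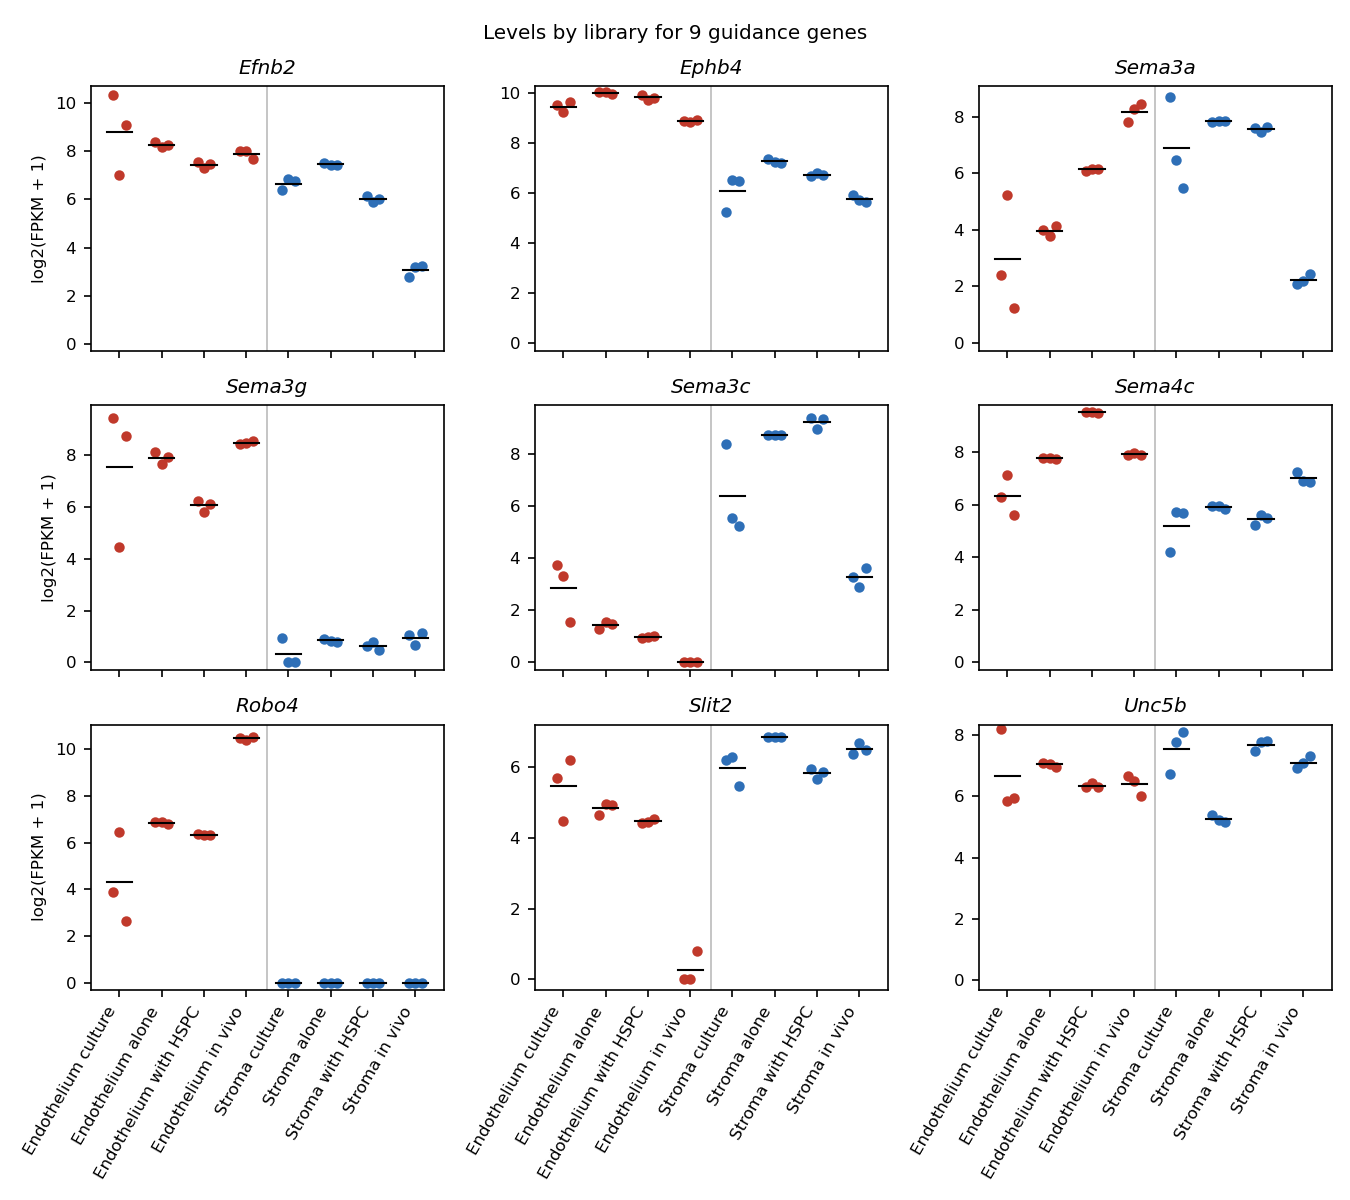
Levels of 9 guidance genes by library, as log2(FPKM + 1); points are libraries (endothelium in red, stroma in blue), black bars are means of 3 libraries, and each panel has its own vertical scale. Robo4 is at 0 in every stromal library, Slit2 is at or near 0 in endothelium in vivo, and Sema3a changes places between the cell types from culture to in vivo.

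Ntn1, the best known netrin, was found in both cell types and fell with HSPC in both. It stood at 61.8, 12.4 and 6.1 FPKM in cultured endothelium, 192, 168 and 172 FPKM alone, 114, 108 and 116 FPKM with HSPC and 10.99, 12.6 and 10.5 FPKM in vivo. Levels in stroma were 6.1, 268 and 210.3 FPKM in culture, 110.5, 106 and 105 FPKM alone, 40.3, 47.1 and 43.7 FPKM with HSPC and 9.1, 7.5 and 9.54 FPKM in vivo. Replicate 1 of each cultured group differed most from the other 2 libraries. With HSPC Ntn1 changed by -0.65 ± 0.06 on the log2 scale (limma, adjusted p = 6.75e-06) in endothelium and by -1.27 ± 0.06 (limma, adjusted p = 1.94e-08) in stroma. Ntn4, a netrin of basement membranes, fell in endothelium from 65.9, 47.6 and 217 FPKM in culture to 9.08, 7.97 and 6.8 FPKM in vivo, with a difference of -3.32 ± 0.54 on the log2 scale (limma, adjusted p = 5.38e-04). Ntng2, a netrin anchored to the membrane by a lipid, rose in endothelium from 0, 2.89 and 8.11 FPKM in culture to 27, 28.03 and 22.5 FPKM in vivo, by 3.03 ± 0.64 on the log2 scale (limma, adjusted p = 0.00266). Without the libraries with Xist, which leaves only the cultured library at 0, the rise was 4.74. Ntng2 was listed at 0 in endothelium alone and stood at 10.55, 2.89 and 8.79 FPKM with HSPC.

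Unc5b, the netrin receptor of endothelium, was found in both cell types. In endothelium it stood at 292, 56.3 and 61.2 FPKM in culture, 137, 133 and 123 FPKM alone, 77.99, 85.45 and 77.6 FPKM with HSPC and 101, 90.7 and 64.4 FPKM in vivo. Stromal levels were 106, 219 and 272 FPKM in culture, 40.7, 36.2 and 35.3 FPKM alone, 179, 217 and 221 FPKM with HSPC and 120.45, 134 and 158 FPKM in vivo. Alone, endothelium lay above stroma in every library, and with HSPC stroma lay above endothelium in every library. The change with HSPC was 2.43 ± 0.08 on the log2 scale (limma, adjusted p = 9.49e-10) in stroma and -0.70 ± 0.08 (limma, adjusted p = 3.31e-05) in endothelium, and the interaction was -3.13 ± 0.12 (limma, adjusted p = 9.00e-09). Alone, the cell types differed by 1.78 ± 0.08 on the log2 scale (limma, adjusted p = 1.17e-09). In vivo their difference was -0.70 ± 0.57 on the log2 scale (limma, adjusted p = 0.339), and it passed with only the compared groups in the fit (adjusted p = 0.00838). In culture it was -0.88 ± 0.57 (limma, adjusted p = 0.253), which became -1.64 (adjusted p = 0.00523) without replicate 1 of cultured endothelium.

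Unc5c was a stromal receptor. It stood at 18.1, 49.1 and 43.3 FPKM in cultured stroma, 91.75, 88.4 and 81.8 FPKM alone, 14.5, 13.95 and 13.3 FPKM with HSPC and 26.7, 24.5 and 36.6 FPKM in vivo, and no endothelial library passed 0.32 FPKM. With HSPC it fell in stroma, with a difference of -2.56 ± 0.07 on the log2 scale (limma, adjusted p = 1.72e-10). Unc5a stood at 52.4, 56.2 and 60.35 FPKM in endothelium in vivo and at 0, 4.8 and 0 FPKM in culture, a difference of 4.99 ± 1.22 on the log2 scale (limma, adjusted p = 0.00593). Stroma held 0.71, 57.7 and 65.85 FPKM in culture and 8.03, 4.74 and 5.39 FPKM in vivo, and replicate 1 of cultured stroma lay far below the other 2 libraries.

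A list of 41 partner genes held co-receptors, relatives of the ligands and proteins inside the cell that act below these receptors. In vivo 16 of 37 tested partners were higher in endothelium and 11 lower, against 25% and 24.2% of all genes, and alone 18 of 34 were higher and 14 lower, against 42% and 41.3%. With HSPC 8 of 34 were higher and 17 lower in endothelium, against 28.3% and 20.3% of all genes, and 5 were higher and 22 lower in stroma, against 25.6% and 35.4%. Nrp1, the neuropilin that binds semaphorin 3A and VEGF, stood at 819.55, 734 and 787 FPKM in endothelium in vivo and 365, 329 and 328 FPKM in stroma in vivo, a difference of 1.19 ± 0.31 on the log2 scale (limma, adjusted p = 0.00942). With HSPC it changed by -0.79 ± 0.05 on the log2 scale (limma, adjusted p = 1.48e-07) in endothelium and by -1.16 ± 0.05 (limma, adjusted p = 4.23e-09) in stroma. Nrp2, the neuropilin of semaphorin 3F, stood at 146, 130.4 and 166 FPKM in endothelium alone and 243, 253 and 252 FPKM with HSPC, and at 1029, 961 and 935 FPKM in stroma alone and 325, 320.3 and 296 FPKM with HSPC. Its change was 0.76 ± 0.07 on the log2 scale (limma, adjusted p = 7.33e-06) in endothelium and -1.63 ± 0.07 (limma, adjusted p = 1.05e-08) in stroma. Of the netrin receptors outside the Unc5 family, Dcc was too low to be tested, and Neo1 stood at 148, 78.4 and 55.25 FPKM in cultured endothelium and 13.9, 12.2 and 11.7 FPKM in vivo, a difference of -2.69 ± 0.30 on the log2 scale (limma, adjusted p = 4.31e-05).

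RefSeq promoters were found for 59 of the 68 members, 75 entries of 32851 in the table. CAGGAAG was present in 12% of the members' promoters and in 13.3% of all promoters, counted on both strands. The 11 members that were higher in endothelium in all 3 settings had 11 promoters for 9 genes, of which those of Robo4 and Sema6b held CAGGAAG, 18.2%. Of the 6 motifs searched, CCGGAAG, also an ETS core, was present in 0% of these 11 promoters, 2.7% of the members' and 8.9% of all. GTGGGAA, a motif of RBPJ, was present in 0%, 5.3% and 6.4%. AACAGGAA, a motif of FOX and ETS factors, was present in 9.1%, 2.7% and 2.6%. The GC box GGGCGG was present in 69.3% of the members' promoters, in 47.2% of the promoters of all symbols in the files and in 35.7% of all promoters. It was present in 81.8% of the promoters of the 11 endothelial members and in 84.6% of the 13 promoters of the 10 stromal ones. TATAAA was present in 2.7% of the members' promoters, those of Efnb2 and Slit2, and in 13.6% of all. Members' promoters held a median of 19 CpG pairs, against 13 over the promoters of all symbols in the files and 7 over all promoters. These matches are descriptions of the letters in the window and say nothing about binding in these cells.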

How the data were processed

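RNA was extracted with Trizol and sequenced as paired ends after TruSeq preparation, per the labels' protocols. The authors deposited 1 FPKM value per gene symbol and library; TopHat, Cufflinks and the mouse build mm9 are named, without versions, per the submitters' processing notes. A further scaling of the deposited values is not stated. Values have 2 decimals, and counts were not used.

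Groups came from the titles. Analysis used R 4.3.3, limma 3.58.1 (lmFit, eBayes with a trend) on log2(FPKM + 1), so fold changes of low genes are understated, and Python 3.11.15 with matplotlib 3.10.9. There were 2 fits of 12 libraries, culture with in vivo and alone with HSPC, and 9 comparisons. A gene entered the test when 3 or more libraries of the fit reached 1 FPKM, with Benjamini-Hochberg adjustment over all of them and a threshold of 0.05. Levels are means ± SD, differences ± SE. The members, lists and tests were chosen with earlier results of these data known. Given by library were Efnb2, Ephb4, Robo4, Unc5b, Plxnd1 and, in each comparison, up to 5 called members with the largest rise and 5 with the largest fall, where groups did not overlap and the higher group averaged 5 FPKM or more; other members were named after their values were seen. Alternatives were a pseudocount of 0.1, no filter, trimmed-mean scaling (trims of 0.3 and 0.05), other groups in the fit, the replicate number as a block, each library left out, and cultured libraries with Xist above 100 FPKM left out. The fits were tested on simulated data. RefSeq tables of build GRCm38.p6 gave promoters and gene neighbours only. No sequence of the files' own build was used here.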

Additional observations from a re-analysis of the deposited data

Results flagged for a closer look

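The change between culture and in vivo differed between the cell types for 11 of the members named by the rule, by the interaction in limma (endothelial change minus stromal change on the log2 scale). It was highest for Sema3a at 9.87, with a rise in endothelium and a fall in stroma. It was 6.44 for Unc5a, 3.45 for Plxna4, 3.31 for Sema6b and 2.68 for Efnb2. Robo4 had 6.14, which is the endothelial change itself, since Robo4 was listed at 0 in all stromal libraries. Slit2 had -5.75 and Slit3 -3.26, with falls in endothelium. Plxnb1 had -4.71 and Sema3d -5.06, with rises in stroma. Sema4d had -5.27, a value that depends on the pseudocount because cultured stroma was listed at 0. The Efnb2 call was lost in 9 of the 12 fits that left out 1 library (adjusted p = 0.0536 to 0.0909) and with the replicate block (adjusted p = 0.0591), and its value was 1.77 without replicate 2 of cultured endothelium and 1.11 without the cultured libraries with Xist. The Slit3 call was lost in 9 of those fits (adjusted p = 0.0517 to 0.0764) and without the cultured libraries that stand apart (-2.76, adjusted p = 0.0891). Without the cultured libraries with Xist the Slit3 value was -1.49. The Sema3d call was lost with a pseudocount of 0.1 (-5.43, adjusted p = 0.087), and its value was -2.58 without the cultured libraries with Xist.

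The change with HSPC differed between the cell types for 14 named members by the same test. Sema3a had 2.45 and Sema4c 2.21, with rises in endothelium and falls in stroma. Unc5b had -3.13 and Slit3 -2.61, with falls in endothelium and rises in stroma. Sema5a had -1.85, with a rise in stroma. Sema3g had -1.62, Sema7a -1.55 and Robo4 -0.52, with falls in endothelium. Efnb2 had 0.60 and Ephb4 0.35, where both cell types fell and stroma fell more. Epha3 had 2.12 and Unc5c 2.56, which are the stromal falls themselves, since both genes were listed at 0 in endothelium of this series. Ntng2 had 3.35, which depends on the pseudocount because endothelium alone was listed at 0. Plxnd1 had -0.57, a call lost in 11 of the 12 fits that left out 1 library (adjusted p = 0.0517 to 0.0893), with a pseudocount of 0.1 (0.0549), with no filter (0.0509) and with the replicate block (adjusted p = 0.0559), with a value of -0.36 without replicate 2 of stroma with HSPC. With all 8 groups in the fit, the calls for Efnb2, Epha3, Ephb4, Plxnd1, Robo4, Sema3a, Sema3g and Sema7a were lost.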

How the results depend on the processing

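Counts of called members stayed within 1.5 times of the reported ones under every alternative run, with 1 exception: the interaction of cell type and HSPC called 12 members with all 8 groups in the fit, against 43. In both fits the value was 2.45 for Sema3a and -0.57 for Plxnd1. The SE was 0.11 and 0.22 in the main fit and 1.03 and 0.60 with all 8 groups. Which of the added groups widened it was not tested. With only the compared groups in the fit, endothelium minus stroma called 54 of 57 members in vivo and 20 of 50 in culture. The main fit called 39 and 30 of 58. The share of all genes called went from 49.3% to 74.2% in vivo and from 38.7% to 21.1% in culture. Leaving out 1 library at a time gave 25 to 34 called members for endothelium minus stroma in culture, 51 to 53 alone and 34 to 37 in vivo, 21 to 28 and 24 to 36 for in vivo minus culture in endothelium and stroma, 22 to 30 for their interaction, 30 to 33 and 42 to 45 for HSPC in endothelium and stroma, and 38 to 44 for their interaction. The members higher in endothelium in all 3 settings numbered 9 with only the compared groups in the fit, without Efnb2 and Sema6b, and those lower numbered 7 against 10, without Efna2, Epha7 and Sema4a. Without the cultured libraries with Xist the lower ones numbered 11, of which 8 were among the 10, and without those that stand apart 15, all 10 among them. Of 2094 values of single members under alternatives, 1992 kept direction and side of the threshold, 76 lost the call, 25 gained one and 1 turned. That was the interaction of cell type and setting for Unc5b, -1.63 without the cultured libraries with Xist against 0.18. Same-numbered libraries did not deviate together (r = -0.114 to 0.099 and -0.063 to 0.13 in the 2 fits). This cannot exclude a pairing by mouse or culture, which the labels do not state. With the replicate number as a block, 30, 53 and 39 members were called for endothelium minus stroma in culture, alone and in vivo, 24, 28 and 25 for the setting in endothelium, stroma and their interaction, and 33, 43 and 41 for HSPC. Among single members the block ended the calls for the Efnb2 interaction with setting and the Plxnd1 interaction with HSPC, and it changed no other call of those run. With 3 libraries a group and no read counts, low levels carry an error that depth cannot be set against, and an FPKM of 0 is only a listed value. The fit without the cultured libraries that stand apart was chosen after seeing the data, and it gave 34, 34, 38 and 33 called members for the 4 comparisons that use them.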
